A study of Homo sapiens with 8 samples.

Results

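HOX cluster genes made up 38 of the 56632 genes in the count table of M1, M2, M3 and M4 cells, and they were picked by name, not by any measured value. Of the 38 genes, 10 lie in the HOXA cluster on chromosome 7, 10 in HOXB on chromosome 17, 9 in HOXC on chromosome 12 and 9 in HOXD on chromosome 2. MCF10A, an immortalized mammary epithelial line that forms no tumors, is M1. M2 (MCF10AT1k.cl2) came from M1 cells that received the activated T24-HRAS gene and were then selected as a xenograft in mice. M3 (MCF10Ca1h) and M4 (MCF10CA1a.cl1) were each established from a carcinoma that grew out of an M2 xenograft, so that M2, M3 and M4 share the HRAS transfection and the passage through mice. All 4 lines were grown for 8 days as 3D acini in Matrigel in medium with 2% horse serum. M1 and M2 cells received EGF at 10 ng/ml, and M3 and M4 cells received 0 ng/ml, so in M3 or M4 against M1 or M2 the line and the medium cannot be told apart. Each line was sequenced as 2 biological replicates. Since each line is a single isolate, the p-values rest on the spread between replicate cultures and not between isolates. That spread was estimated jointly over the 4 lines.

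HOX genes encode homeodomain transcription factors that give cells their position along the body axis. Within a cluster the genes stand in the order in which they act, with low-numbered genes used toward the head and high-numbered genes toward the tail, and genes of the same number in different clusters are paralogs. HOX proteins bind DNA together with cofactors of the TALE class (PBX, MEIS), Polycomb complexes keep the clusters silent, trithorax complexes keep them active, and retinoic acid induces them in embryonic cells. In the mammary gland HOX genes act in the placode and during growth in pregnancy, and their expression is altered in many breast tumors.

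The labels of a pair of libraries are in doubt. A supplementary expression table of the study assigns 2 of the 8 libraries to the other line: across 284 genes the column it names M2 replicate 1 resembled most the sample that the labels call M1 replicate 2 (r = 0.983), and the column M1 replicate 2 the sample called M2 replicate 1 (r = 0.962, correlations across genes, which are not independent). The other 6 columns were closest to the library of the same name. In the submitters' numbering of the libraries, these 6 follow the order of the lines within each replicate. The 2 doubtful libraries stand in each other's place in that order. Which assignment is right was not settled. The sample labels are used below, and the called HOX changes against M1 or M2 are also given without these 2 libraries and with their labels exchanged. As labelled, the M2 replicates were the most alike of any line (Spearman correlation across genes 0.995, chi-square per degree of freedom of their counts 6.65), and the M1 replicates the least alike by rank (0.971, chi-square per degree of freedom 233). The exchange called 0 genes between M2 and M1, where the labels gave 622. Total counts ran from 69669945 to 107350288 per library. The HRAS gene, in whose row the count table does not separate transfected from endogenous copies, was at 154 and 139 CPM (counts scaled for library size and composition) for M1, 160 and 154 for M2, 269 and 327 for M3, and 335 and 352 for M4. All 10 mammary epithelial markers were above 0 in every library, with a summed level of 10242 to 16200 CPM, and they shifted among themselves. Against M1, 6 of the 10 were called higher and 0 lower in M3, and in M4 5 were higher, among them the luminal keratin KRT18 (2.00), EPCAM (1.57) and LAMB3 (2.64), and 3 lower, namely the basal markers KRT14 (-2.37), KRT5 (-1.26) and TP63 (-1.38, log2 fold changes). The 7 fibroblast markers summed to 60.2 and 9.36 CPM for M1, 74.7 and 72.7 for M2, 16.2 and 17.8 for M3, and 7.59 and 6.47 for M4, lowest in M4 like many HOX genes below, with COL1A2 at 0 in all 8 libraries. The 6 leukocyte markers summed to 7.18 to 36.4 CPM, with CD3E at 0 everywhere and PTPRC above 0 in 1 library. The 5 endothelial markers summed to 2.61 and 3.12 CPM for M1, 0.226 and 0.142 for M2, 1.81 and 1.19 for M3, and 0.432 and 0.218 for M4. Each library came from a culture of a single mammary epithelial line, so these marker levels do not show that cells of those types were present. The relation of the marker levels to the HOX results was not tested. In bulk RNA, fewer cells that express a gene and less RNA per cell cannot be told apart.

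The listed HOXA genes and all listed HOXC genes but HOXC12 were expressed in at least 1 line, HOXA13 and HOXC4 only at low levels. HOXB genes were expressed in part, and HOXD genes were at or near 0. The 10 HOXA genes and 8 of 9 HOXC genes reached 10 counts in some library, compared with 4 of 10 HOXB genes and 0 of 9 HOXD genes. These 22 genes are also the ones that passed the filter on low counts, and they passed only if some line expressed them. In 7 genes the count was 0 in all 8 libraries: HOXB1, HOXB7, HOXB13, HOXD1, HOXD3, HOXD4 and HOXD8. A count of 0 allows a level of up to 3 counts, which is 0.0279 to 0.0431 CPM by total counts in these libraries, so very low expression was not detectable at this depth. Another 9 genes stayed under 10 counts in every library, namely HOXB4, HOXB5, HOXB8, HOXC12 and HOXD9 to HOXD13, and HOXD12 reached 6 counts in both M3 libraries.

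**Figure D1:**
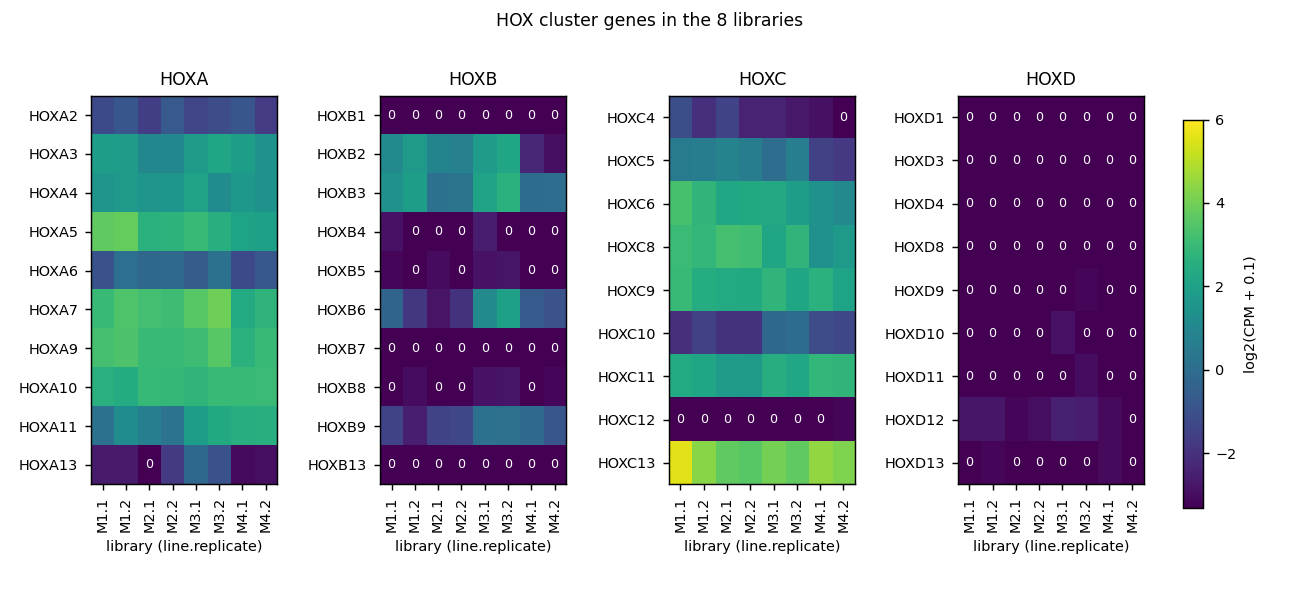
Level of the 38 HOX genes in each of the 8 libraries as log2(CPM + 0.1), with genes ordered by number within each cluster and a white 0 where no count was recorded. HOXA and HOXC are filled from end to end except for HOXC12, with HOXA13 and HOXC4 low in most libraries. HOXA13 has a 0 in M2 replicate 1 and HOXC4 in M4 replicate 2. HOXB is filled at HOXB2, HOXB3, HOXB6 and HOXB9, and HOXD is at or near 0 throughout.

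Per length of transcript (RPKM, CPM per kilobase of exon), HOXC13 was the most abundant HOX gene. HOXC13, which is required for hair and nail formation, had a mean of 8.65 RPKM over the 8 libraries, above 75.9% of the 17705 tested genes with a known length. It was followed by HOXA5 at 4.44, HOXA7 at 3.88, HOXC9 at 3.35, HOXA9 at 2.87 and HOXC8 at 2.61 RPKM. These 6 were the HOX genes above the median of tested genes, 2.32 RPKM. HOXA13 was the lowest of the 22 at 0.0381 RPKM, below HOXC4 at 0.0476. The order is a description over all lines and differed between them. HOXA5 was second in M1 at 7.89 RPKM, was at 3.6 in M2 under HOXC8 at 3.77 and HOXA7 at 3.66, at 3.96 in M3 under HOXA7 at 5.61, and at 2.31 in M4 under HOXC9 at 3.08 and HOXA7 at 2.44. HOXC13 had a wide spread within M1, with 48.1 CPM in replicate 1 and 20.1 CPM in replicate 2, against 13 and 11.9 for M2, 16.4 and 13.2 for M3, and 22.3 and 18.1 for M4. The M1 and M4 values of HOXC13 overlapped, and no comparison of HOXC13 passed the test (M3 against M1 log2 fold change -1.20, SE 0.365, edgeR adjusted p = 0.0525).

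Summed over its genes, each cluster had its own pattern over the lines. The HOXA genes summed to 44.7 and 50.5 CPM for M1, 37.9 and 37.2 for M2, 47.6 and 53.8 for M3, and 36.1 and 37.9 for M4. The HOXB genes summed to 5.62 and 7.06 CPM for M1, 3.05 and 3.14 for M2, 10.8 and 15.4 for M3, and 2.30 and 1.85 for M4. M3 was the highest line for HOXB and M4 the lowest, and the ranges of the 4 lines did not overlap as labelled. With the labels of the doubtful pair exchanged, the HOXB sums would be 5.62 and 3.05 CPM for M1 and 7.06 and 3.14 for M2, which overlap. The HOXC genes summed to 80.8 and 45.7 CPM for M1, 37.6 and 35.4 for M2, 39.8 and 35.2 for M3, and 41.3 and 34.7 for M4, so M1 replicate 1 stood alone and the other 7 libraries lay close together. HOXC13 made up 48.1 of the 80.8 CPM in that library.

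**Figure D2:**
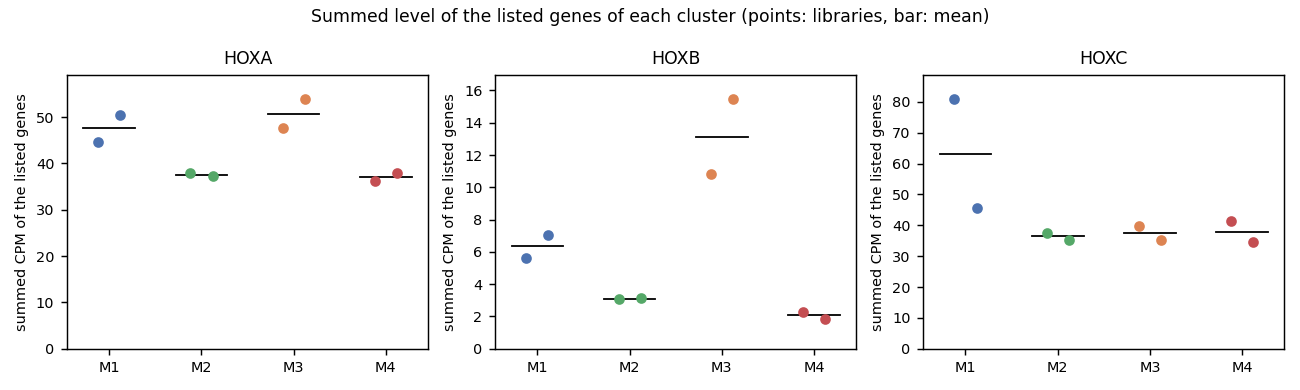
Summed CPM of the listed HOXA, HOXB and HOXC genes in each library (points, replicate 1 on the left) with the mean of each line (bar), on axes that start at 0. The HOXB sum lies between 10.8 and 15.4 CPM for M3 and between 1.85 and 2.30 CPM for M4, whereas the HOXA sums of all lines lie between 36.1 and 53.8 CPM.

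Promoters of expressed and silent HOX genes overlapped in their content of CG dinucleotides, the bases at which DNA is methylated. RefSeq promoter sequences (assembly GRCh38.p14, 250 bases before to 50 after the start) were found for 20 of the 38 genes, and 18 of these have a single start, with 17 different sequences. The counts themselves were made on GRCh37, and no coordinate was carried over. Shown here, because they belong to genes whose levels are described below, are the promoter of HOXC4 (lower in M4 than in M1, chr12:54016638-54016937, plus strand), those of HOXA11 (higher in M4, chr7:27185183-27185482, minus strand) and HOXA7 (lower in M4 than in M3, chr7:27156626-27156925, minus strand), and that of the silent HOXD8 (chr2:176129455-176129754, plus strand), each 5′ to 3′ with every CG dinucleotide in capitals.
HOXC4: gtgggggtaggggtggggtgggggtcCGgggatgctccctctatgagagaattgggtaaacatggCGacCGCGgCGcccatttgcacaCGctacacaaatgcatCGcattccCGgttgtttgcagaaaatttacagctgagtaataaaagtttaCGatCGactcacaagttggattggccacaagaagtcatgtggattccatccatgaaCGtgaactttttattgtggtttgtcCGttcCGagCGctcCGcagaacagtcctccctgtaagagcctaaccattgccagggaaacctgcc
HOXA11: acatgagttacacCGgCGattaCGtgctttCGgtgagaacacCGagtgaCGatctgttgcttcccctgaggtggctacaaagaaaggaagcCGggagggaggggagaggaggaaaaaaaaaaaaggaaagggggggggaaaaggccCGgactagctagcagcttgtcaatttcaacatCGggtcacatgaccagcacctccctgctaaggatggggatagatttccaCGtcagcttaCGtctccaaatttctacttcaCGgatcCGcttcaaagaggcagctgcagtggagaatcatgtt
HOXA7: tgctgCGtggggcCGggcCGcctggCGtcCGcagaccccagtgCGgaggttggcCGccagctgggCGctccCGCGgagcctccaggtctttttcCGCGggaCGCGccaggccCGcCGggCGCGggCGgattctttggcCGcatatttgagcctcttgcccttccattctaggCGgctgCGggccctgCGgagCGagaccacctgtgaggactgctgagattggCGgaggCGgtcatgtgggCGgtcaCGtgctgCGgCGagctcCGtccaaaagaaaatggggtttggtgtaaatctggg
HOXD8: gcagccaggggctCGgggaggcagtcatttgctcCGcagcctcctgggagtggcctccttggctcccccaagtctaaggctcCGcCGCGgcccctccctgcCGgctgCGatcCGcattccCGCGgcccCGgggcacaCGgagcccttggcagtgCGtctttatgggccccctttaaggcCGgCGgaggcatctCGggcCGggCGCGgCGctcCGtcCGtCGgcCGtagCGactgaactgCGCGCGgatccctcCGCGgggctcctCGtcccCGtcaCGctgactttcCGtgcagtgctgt

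The silent HOXD8 promoter holds 34 CG dinucleotides, more than those of HOXA7 with 31, HOXC4 with 15 and HOXA11 with 13. RefSeq lists the HOXC4 sequence for HOXC5 too, but in the GRCh37 annotation used here for positions the HOXC5 gene starts further along, at position 54426834 of chromosome 12 against 54410715 for HOXC4, so the sequence is not shown as the promoter of the counted HOXC5 gene. Across the genes with a single start, the median was 24.5 CG (range 11 to 44) in the 8 promoters of genes with at least 10 counts, 23.5 (19 to 27) in 4 of genes with 1 to 9 counts, and 25 (4 to 36) in 5 of silent genes. The promoters of genes with at least 10 counts are all from HOXA and HOXC. Those of the other genes are from HOXD, except for HOXB1. Cluster and expression thus cannot be told apart in this comparison. At least 20 CG occurred in 11 of the 17 sequences, against 41.1% of all 34796 RefSeq promoters of the same length. Of 3 motifs searched on both strands, CCAAT was in 14 of the 17 sequences (34.6% of all promoters), TATAAA in 2 (11.6%) and TAATTA, the core bound by homeodomains, in 2 (4.86%). A match is a description and not evidence of binding.

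The question of the design is how expression changes along the series from M1 to M4, and the lines were compared in pairs with edgeR. To be called, a gene needed an adjusted p below 0.05 (edgeR, corrected by Benjamini-Hochberg over the 18431 genes tested) and a change of more than 2-fold. HOX genes were called most often in comparisons with M4, and there mostly as lower. Between M4 and M1, 8 of the 22 tested HOX genes were called, 1 higher and 7 lower. The background was 20.7% of all tested genes, 1748 higher and 2073 lower. Between M4 and M2, 6 were called, 2 higher and 4 lower (background 13.9%, 1287 higher and 1280 lower). Between M4 and M3, 5 were called, all lower (background 10.3%, 735 higher and 1162 lower). In M3 the called genes were all higher. Against M1 they were 3 of 22, or 13.6%, near the background of 13.5% (1478 higher and 1016 lower). Against M2 they were also 3 of 22 (background 4.15%, 543 higher and 222 lower). Between M2 and M1, 2 of 22 were called, both lower (background 3.37%, 417 higher and 205 lower). The median log2 fold change of the 22 genes was -0.58 in M4 against M1, -0.81 in M4 against M3 and 0.09 in M3 against M1, when the median of all tested genes was -0.02 in each of these. The M4 comparisons share the M4 libraries and are not independent of each other. In all, 13 of the 22 HOX genes were called in at least 1 comparison, 3 in HOXA, 4 in HOXB and 6 in HOXC. The share of all tested genes called in at least 1 comparison was not computed. This count is therefore a description without a background.

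**Figure D3:**
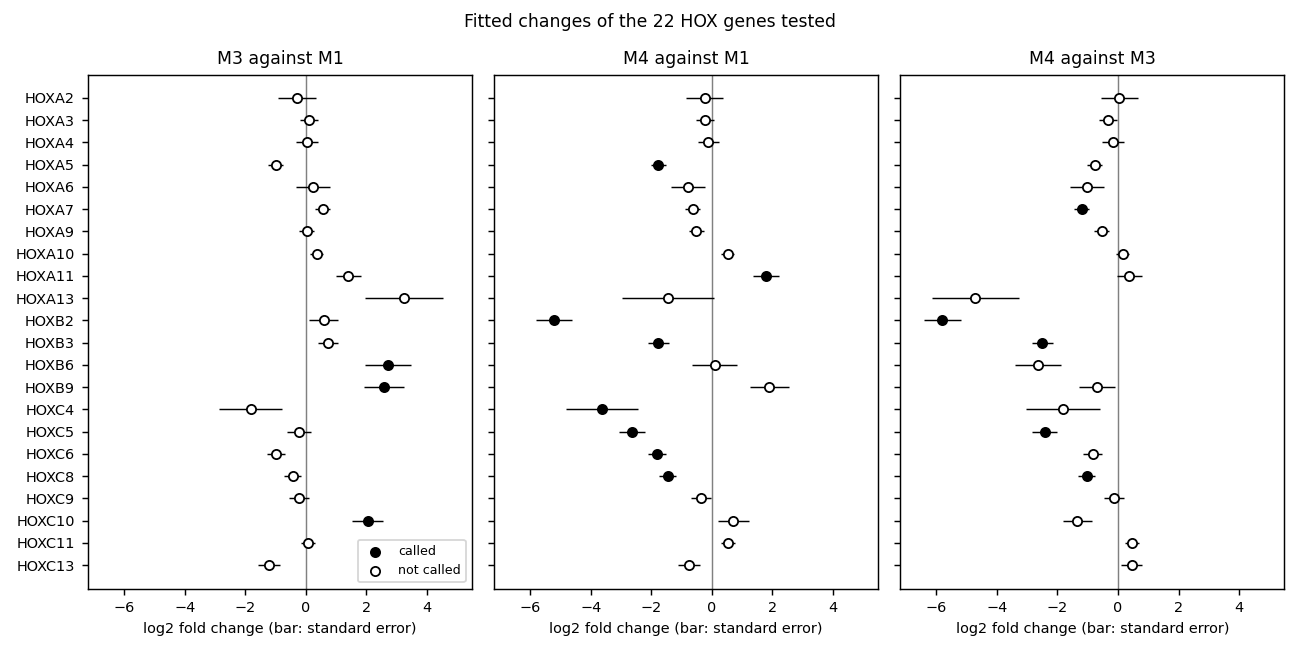
Fitted log2 fold changes (points) with standard errors (bars) of the 22 tested HOX genes in M3 against M1, M4 against M1 and M4 against M3, with filled points for called genes. Filled points lie right of 0 in M3 against M1 and left of 0 in M4 against M3, and HOXA11 is the only filled point right of 0 in M4 against M1.

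Within HOXB, the head-end genes HOXB2 and HOXB3 were lowest in M4. HOXB2, which specifies hindbrain segments (ENSG00000173917, chr17:46618256-46622471 on GRCh37, minus strand), had 169 and 263 counts for M1, 176 and 111 for M2, 274 and 388 for M3, and 12 and 2 for M4. Scaled to library size this was 2.04 and 3.21 CPM for M1, 1.73 and 1.58 for M2, 3.46 and 4.45 for M3, and 0.106 and 0.0256 for M4, so that every M4 value lay far under every other. HOXB2 fell 37-fold in M4 against M1 (log2 fold change -5.21, SE 0.600, edgeR adjusted p = 0.000951). It was also lower in M4 than in M2 (-4.54, SE 0.589, adjusted p = 0.00245) and in M3 (-5.80, SE 0.611, adjusted p = 0.00239). The M4 value rests on 14 counts, and the M4 against M1 change moved between -6.59 and -4.59 when single libraries were left out. The changes against M2 and M3 moved between -5.93 and -3.93 and between -7.19 and -5.19, with the ends in each case set by leaving out M4 replicate 1 or M4 replicate 2. Without the 2 libraries in doubt HOXB2 was at -4.85 against M1 (adjusted p = 0.00625) and -4.48 against M2 (adjusted p = 0.0121), and with their labels exchanged at -4.75 (adjusted p = 0.0102) and -5.09 (adjusted p = 0.00815). The antisense RNA HOXB-AS1, which overlaps HOXB2 exons on the other strand, was at 0.0295 to 0.0884 CPM in the M1, M2 and M3 libraries and at 0 in both M4 libraries, too low to be tested.

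HOXB3, the neighbor of HOXB2 and also a hindbrain gene (chr17:46626232-46682274, minus strand), followed the same order of lines except that M2 was close to M4. Its levels were 2.56 and 3.57 CPM for M1, 1.00 and 1.11 for M2, 4.07 and 6.08 for M3, and 0.872 and 0.922 for M4. M3 was the highest line, and M2 and M4 lay under M1 without overlap. HOXB3 fell 5.65-fold in M4 against M3 (log2 fold change -2.50, SE 0.355, edgeR adjusted p = 0.00608, and 0.0804 with exchanged labels) and 3.42-fold in M4 against M1 (-1.77, SE 0.348, adjusted p = 0.00779). Without the libraries in doubt HOXB3 in M4 against M1 was -1.51 (adjusted p = 0.0792), and with their labels exchanged -0.99 (adjusted p = 0.380). HOXB3 was called 2.91-fold lower in M2 than in M1 (adjusted p = 0.0482) and 4.81-fold higher in M3 than in M2 (adjusted p = 0.0134), but not without the doubtful libraries (adjusted p = 0.454 and 0.127). After the exchange the first of these was 0.40 (adjusted p = 1) and the second 1.11 (adjusted p = 0.421). The first call was also lost when any other M1, M2 or M4 library was left out, the second without M2 replicate 2, and that in M4 against M3 without M4 replicate 1. HOXB3 shares exon bases with HOXB4 and HOXB6 on the same strand, so its estimated counts depend in part on how reads were divided among them.

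HOXB6 and HOXB9, further toward the tail, were highest in M3. HOXB6 (chr17:46673113-46682354, minus strand) was at 0.701 and 0.183 CPM for M1, 0.0393 and 0.156 for M2, 2.08 and 3.81 for M3, and 0.520 and 0.423 for M4. Both M3 values stood above all others, and HOXB6 rose 6.65-fold in M3 against M1 (log2 fold change 2.73, SE 0.763, edgeR adjusted p = 0.040) and 31.1-fold against M2 (4.96, SE 0.878, adjusted p = 0.0197). HOXB9, which with its paralogs supports mammary growth in pregnancy (chr17:46698518-46703720, minus strand), was at 0.266 and 0.0732 CPM for M1, 0.265 and 0.299 for M2, 1.05 and 0.999 for M3, and 0.802 and 0.461 for M4. HOXB9 rose 5.99-fold in M3 against M1 (2.58, SE 0.651, adjusted p = 0.0285), and its change in M4 against M1 was 1.89 (SE 0.642, adjusted p = 0.0568), which missed the threshold. When M1 replicate 1 or M1 replicate 2 was left out, the M3 against M1 change of HOXB6 was 4.01 or 2.07 and that of HOXB9 3.78 or 1.94. Without M2 replicate 1 or M2 replicate 2, the change of HOXB6 in M3 against M2 was 4.23 or 6.18. Without the libraries in doubt none of the M3 calls of HOXB6 and HOXB9 was kept (HOXB6 against M1 2.08, adjusted p = 0.0994, and against M2 4.23, adjusted p = 0.0507, HOXB9 against M1 1.94, adjusted p = 0.143). In the exchanged labelling the adjusted p was 0.201 and 0.135 for HOXB6 and 0.209 for HOXB9. Single markers shared parts of the HOXB pattern while others of their lists did not. The basal keratin KRT14 was at 17.7 and 8.26 CPM for M1, 37.3 and 36.3 for M2, 99.7 and 91.1 for M3, and 2.30 and 2.74 for M4, so that like HOXB it was highest in M3 and lowest in M4, but unlike HOXB it was higher in M2 than in M1. Of the 5 tested fibroblast markers, THY1 was the one called higher in M3 than in M1, at 6.08 and 1.76 CPM for M3 and at most 0.0491 CPM in the other libraries, and the sum of the list was highest in M2. Of the 2 tested endothelial markers, KDR was at 2.33 and 3.04 CPM for M1 and 1.76 and 1.18 for M3. As labelled it was lower in M2 (0.187 and 0.0995 CPM) and M4 (0.0529 and 0.0128 CPM). VWF, in contrast, was called lower in M3 than in M1 (-4.25) and higher in M4 than in M3 (4.56). With exchanged labels neither VWF call was kept (edgeR adjusted p = 0.256 and 0.137), and KDR was at 0.32 in M2 against M1. The relation of these markers to the HOXB results was not tested.

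Within HOXC, the 4 genes at the head end, HOXC4, HOXC5, HOXC6 and HOXC8, were called lower in M4 than in M1, while HOXC9, HOXC10, HOXC11 and HOXC13 were not. HOXC5 (chr12:54426834-54429145, plus strand) was at 1.37 and 1.41 CPM for M1, 1.70 and 1.46 for M2, 0.897 and 1.48 for M3, and 0.247 and 0.192 for M4. Only the M4 libraries were low. HOXC5 fell 6.27-fold in M4 against M1 (log2 fold change -2.65, SE 0.426, edgeR adjusted p = 0.00359), 7.14-fold against M2 (-2.83, SE 0.428, adjusted p = 0.00426) and 5.37-fold against M3 (-2.42, SE 0.423, adjusted p = 0.0109). With the 2 doubtful libraries left out these changes were -2.62, -2.73 and -2.43 (adjusted p = 0.0297, 0.0375 and 0.0316), and with the labels exchanged -2.79, -2.70 and -2.43 (adjusted p = 0.0167, 0.0164 and 0.0371). HOXC4 was lower in level, at 31 and 12 counts for M1, 27 and 6 for M2, 7 and 5 for M3, and 4 and 0 for M4. Its call in M4 against M1 (-3.64, SE 1.18, adjusted p = 0.0495) was at the edge of the threshold and was lost in 11 of 16 alternatives, among them the fit without the doubtful libraries (-4.16, adjusted p = 0.0888) and the exchange (-3.94, adjusted p = 0.0674). It was -2.80 without M1 replicate 1, -7.44 without M4 replicate 1 and -2.82 without M4 replicate 2.

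HOXC8, which acts in the mammary placode (chr12:54402769-54406553, plus strand), was at 8.18 and 7.15 CPM for M1, 9.39 and 8.81 for M2, 4.53 and 6.83 for M3, and 2.45 and 3.11 for M4. M2 was the highest line and M4 the lowest, with no overlap between any 2 lines. HOXC8 fell 2.76-fold in M4 against M1 (log2 fold change -1.46, SE 0.281, edgeR adjusted p = 0.00720), 3.27-fold against M2 (-1.71, SE 0.283, adjusted p = 0.00597) and 2.04-fold against M3 (-1.03, SE 0.279, adjusted p = 0.0425). Without the doubtful libraries the values were -1.56, -1.67 and -1.04 (adjusted p = 0.0477, 0.0536 and 0.107), and with exchanged labels -1.66, -1.52 and -1.03 (adjusted p = 0.0254, 0.0289 and 0.114). HOXC6, expressed in the developing mammary gland (chr12:54384408-54424607, plus strand), was at 9.78 and 6.79 CPM for M1, 4.73 and 4.98 for M2, 4.79 and 3.65 for M3, and 2.69 and 2.01 for M4. It fell 3.52-fold in M4 against M1 (-1.82, SE 0.308, adjusted p = 0.00442) and 2.06-fold against M2 (-1.04, SE 0.303, adjusted p = 0.0436). With exchanged labels HOXC6 was at -1.62 in M4 against M1 (adjusted p = 0.0581) and at -1.32 against M2 (adjusted p = 0.0873), and without the doubtful libraries at -2.06 (adjusted p = 0.0192) and -1.08 (adjusted p = 0.165). HOXC6 shares exon bases with HOXC4 and HOXC9 on the same strand, and its estimated counts were not whole in 8 of 8 libraries. The counts of HOXC5 were also not whole in 8 of 8 libraries, and those of HOXC4 in 7. The levels of these genes thus depend in part on how reads were divided.

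Toward the tail end of HOXC, HOXC10 was called higher in M3 than in M1 or M2, and HOXC11 higher in M4 than in M2. HOXC9 was at 7.76 and 5.35 CPM for M1, 5.07 and 4.90 for M2, 6.78 and 4.48 for M3, and 6.09 and 4.18 for M4. The lines overlapped for HOXC9 in 5 of the 6 pairs, and no pair was called (M4 against M1 -0.35, SE 0.326, adjusted p = 0.449). HOXC10, a gene of the lumbar region (chr12:54378849-54384063, plus strand), was at 0.145 and 0.256 CPM for M1, 0.157 and 0.156 for M2, 0.796 and 0.873 for M3, and 0.361 and 0.295 for M4. HOXC10 rose 4.14-fold in M3 against M1 (2.05, SE 0.512, edgeR adjusted p = 0.0277) and 5.28-fold against M2 (2.40, SE 0.521, adjusted p = 0.0412), and without the doubtful libraries both calls were lost (2.52, adjusted p = 0.0908, and 2.41, adjusted p = 0.233), as they were after the exchange (adjusted p = 0.0937 and 0.141). HOXC11 (chr12:54366910-54371427, plus strand) was at 5.11 and 4.50 CPM for M1, 3.36 and 3.08 for M2, 5.47 and 4.63 for M3, and 7.13 and 6.79 for M4, with M4 above every other library. It rose 2.16-fold in M4 against M2 (1.11, SE 0.242, adjusted p = 0.0164), a call that was lost without the doubtful libraries (1.17, adjusted p = 0.132) and with exchanged labels (0.88, adjusted p = 0.146).

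In HOXA, HOXA5 was highest in M1 and HOXA11 highest in M4. HOXA5, which acts in lung and mammary gland development (chr7:27180671-27183300, minus strand), was at 13.2 and 13.9 CPM for M1, 6.02 and 6.35 for M2, 7.96 and 5.65 for M3, and 4.16 and 3.78 for M4. Both M1 libraries stood above all others. HOXA5 fell 3.42-fold in M4 against M1 (log2 fold change -1.77, SE 0.241, edgeR adjusted p = 0.00187) and 2.19-fold in M2 against M1 (-1.13, SE 0.237, adjusted p = 0.0387). In M3 against M1 it was at -0.996 (SE 0.236, adjusted p = 0.0229), just short of the minimum fold change. The libraries in doubt weighed on HOXA5: without them M4 against M1 was -1.73 (adjusted p = 0.0232) and M2 against M1 -1.05 (adjusted p = 0.389), and with labels exchanged M4 against M1 was -1.28 (adjusted p = 0.15) and M2 against M1 was 0.08 (adjusted p = 1). HOXA11, needed for fertility and forearm formation (chr7:27220776-27224851, minus strand), was at 1.02 and 2.22 CPM for M1, 1.51 and 1.07 for M2, 3.63 and 4.99 for M3, and 5.52 and 5.65 for M4. M3 and M4 lay above M1 and M2 without overlap. HOXA11 rose 3.45-fold in M4 against M1 (1.79, SE 0.428, adjusted p = 0.0169) and 4.32-fold against M2 (2.11, SE 0.433, adjusted p = 0.0133). Without the doubtful libraries these were 2.46 (adjusted p = 0.0211) and 2.38 (adjusted p = 0.0331), and after the exchange 2.14 (adjusted p = 0.0317) and 1.76 (adjusted p = 0.0480). When single libraries were left out, the change in M4 against M1 ran from 1.35 to 2.46, the latter without M1 replicate 2. That in M4 against M2 ran from 1.88 to 2.39. Of 16 alternatives, 14 kept the call in M4 against M1 and 12 that in M4 against M2. In M3 against M1 the change of HOXA11 was 1.41 (SE 0.424, adjusted p = 0.0502). HOXA11-AS, which overlaps HOXA11 on the other strand, ran from 0.246 to 0.641 CPM and was at -0.18 in M4 against M1 (SE 0.549, adjusted p = 0.826).

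HOXA7, expressed in epidermal and other epithelial cells (chr7:27193335-27197555, minus strand), was at 7.78 and 10.6 CPM for M1, 9.15 and 8.47 for M2, 11.8 and 15.2 for M3, and 5.14 and 6.65 for M4. M3 was the highest and M4 the lowest line, and HOXA7 fell 2.30-fold in M4 against M3 (log2 fold change -1.20, SE 0.253, edgeR adjusted p = 0.0198, and adjusted p = 0.0563 with exchanged labels). HOXA3, HOXA4, HOXA9 and HOXA10, with at least 100 counts in both libraries of a line, were not called in any pair. HOXA9, a regulator of blood progenitors, was at 9.43 and 10.4 CPM for M1, 7.91 and 7.73 for M2, 8.43 and 11.8 for M3, and 6.06 and 7.84 for M4. HOXA10, which acts in the uterus, was at 5.97 and 5.21 CPM for M1, 7.46 and 7.21 for M2, 6.81 and 7.61 for M3, and 7.90 and 8.12 for M4, a change of 0.52 in M4 against M1 (SE 0.211, adjusted p = 0.0981). HOXA3 was at 3.69 and 3.48 CPM for M1, 1.96 and 1.95 for M2, 3.25 and 4.49 for M3, and 3.54 and 2.60 for M4, so both M2 libraries were lowest. HOXA4 was at 2.83 and 3.21 CPM for M1, 2.84 and 2.89 for M2, 4.05 and 2.18 for M3, and 3.00 and 2.56 for M4, with the widest spread inside M3. The remaining 3 HOXA genes were low. HOXA2 ran from 0.205 to 0.512 CPM and HOXA6 from 0.326 to 1.06 CPM, and HOXA13, a gene of the limb ends and genital tract, had 5 and 5 counts for M1, 0 and 14 for M2, 61 and 36 for M3, and 2 and 2 for M4. HOXA13 was highest in both M3 libraries, and its change in M3 against M1 was 3.25 with an SE of 1.29 (adjusted p = 0.111). HOXA9 and HOXA10 both share exon bases with the gene ENSG00000257184 on the same strand, and 19 of the 38 genes overlap exons of an antisense gene, whose reads cannot be told apart if strand was not used in counting.

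**Figure D4:**
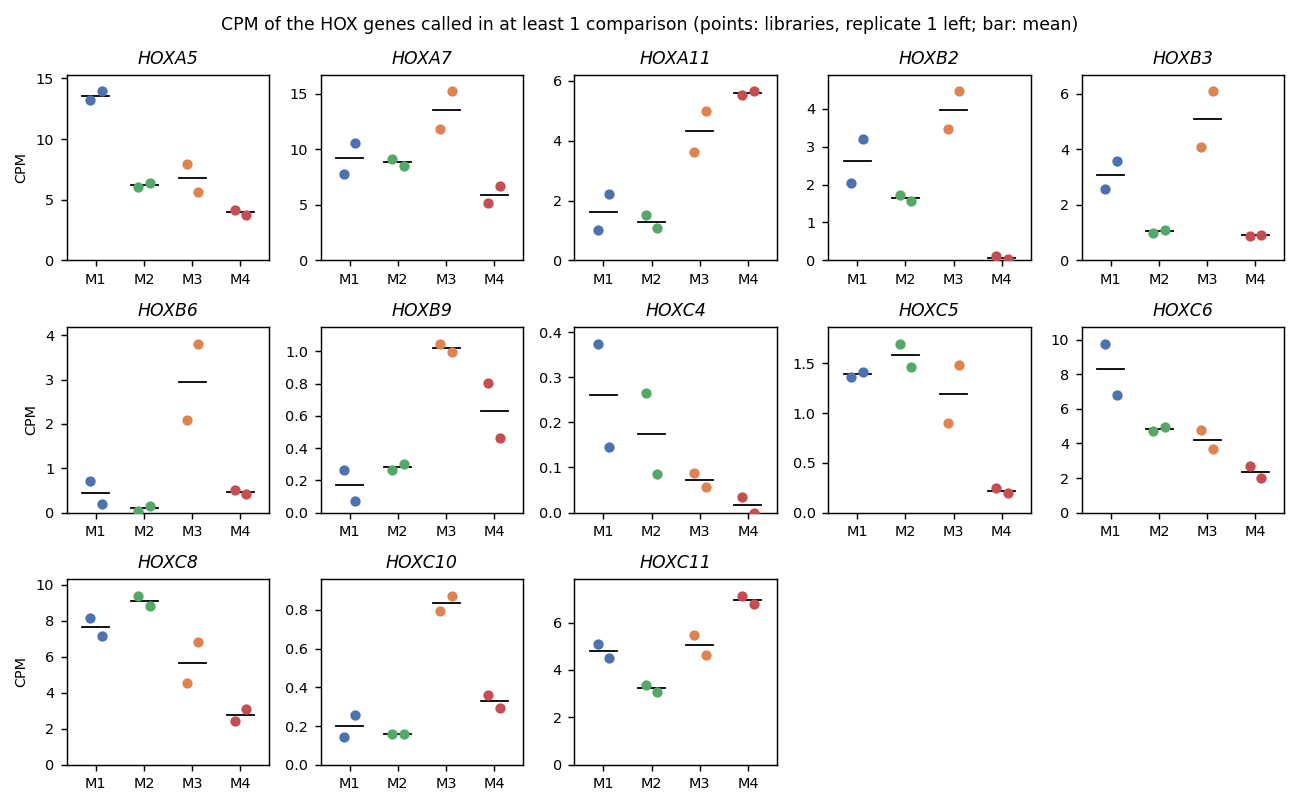
CPM of the 13 HOX genes called in at least 1 comparison, with 1 point per library (replicate 1 on the left of each pair), the mean of each line as a bar and axes that start at 0. M4 holds the lowest values of HOXB2, HOXB3, HOXC4, HOXC5, HOXC6, HOXC8, HOXA5 and HOXA7 and the highest of HOXA11 and HOXC11, while M3 holds the highest values of HOXB6, HOXB9 and HOXC10.

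Among noncoding RNAs of the clusters, HOTAIR and HOXC13-AS were called lower in both carcinoma lines than in M1, and HOXC13-AS also in M2. Of 21 listed, 19 were in the table, 7 were at 0 in every library and 8 were tested, all in HOXA or HOXC. In M4 against M1, 4 of the 8 were lower and 0 higher, where 20.7% of all tested genes were called. HOTAIR, transcribed from HOXC and known to bind Polycomb proteins, was at 5.93 and 11.2 CPM for M1, 7.45 and 7.04 for M2, 1.77 and 2.23 for M3, and 2.57 and 2.78 for M4. The M3 and M4 values of HOTAIR lay under those of M1 and M2, with log2 fold changes against M1 of -2.10 in M3 (SE 0.347, edgeR adjusted p = 0.00624) and -1.68 in M4 (SE 0.341, adjusted p = 0.00907). Without the doubtful libraries HOTAIR was at -1.56 (adjusted p = 0.0600) and -1.15 (adjusted p = 0.114), and with exchanged labels at -1.74 (adjusted p = 0.0701) and -1.32 (adjusted p = 0.0562). HOXC13-AS, which overlaps HOXC13 on the other strand, was at 10.4 and 12 CPM for M1, 3.59 and 3.27 for M2, 1.52 and 1.85 for M3, and 1.91 and 1.68 for M4. In M2 against M1 it was called lower (-1.71, SE 0.261, edgeR adjusted p = 0.0139). That change was -1.66 without the doubtful libraries and 0.13 with exchanged labels, where it was not called. HOXC13-AS was at -2.74 in M3 against M1 (SE 0.272, adjusted p = 0.00108, and 0.0130 without the doubtful libraries and 0.189 with exchanged labels). It fell by 2.64 on the log2 scale in M4 against M1 (SE 0.270, adjusted p = 0.000608, and adjusted p = 0.00990 without the doubtful libraries and 0.121 with exchanged labels). HOXA-AS2 (-1.37, adjusted p = 0.0319) and HOXC-AS1 (-2.90, adjusted p = 0.0127) were the other RNAs called lower in M4, and neither was without the doubtful libraries (adjusted p = 0.140 and 0.0863) or with exchanged labels (adjusted p = 0.372 and 0.103). In M4 against M3, 0 of the 8 were called by edgeR, 1 had an unadjusted p under 0.05 and DESeq2 called 0.

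**Figure D5:**
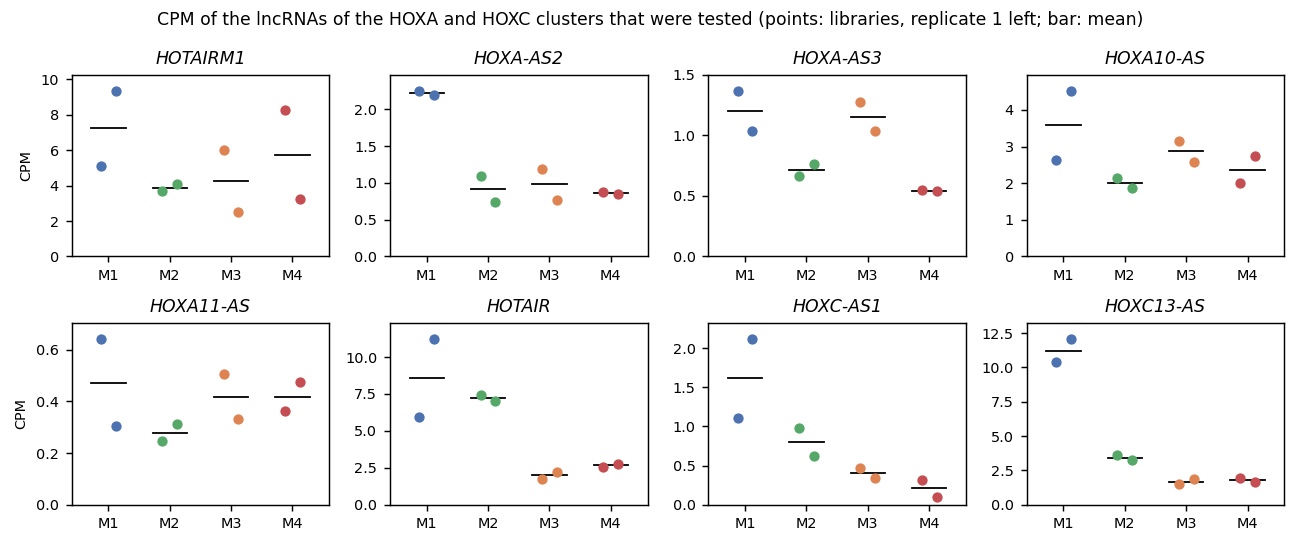
CPM of the 8 tested noncoding RNAs of the HOXA and HOXC clusters by library (points, replicate 1 on the left) with line means (bars), on axes that start at 0. HOTAIR is at 5.93 to 11.2 CPM in M1 and M2 and at 1.77 to 2.78 CPM in M3 and M4, and HOXC13-AS is highest in both M1 libraries.

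Among the TALE cofactors that HOX proteins bind with, MEIS3 was called lower in M4 than in each of the other lines. Of 10 TALE genes, all tested, 3 were lower and 1 higher in M4 than in M1, with a median log2 fold change of -0.89 (background 20.7% called). MEIS3 was at 4.58 and 9.55 CPM for M1, 5.29 and 5.93 for M2, 7.86 and 6.02 for M3, and 1.16 and 0.589 for M4. It fell by 3.00 on the log2 scale in M4 against M1 (SE 0.469, edgeR adjusted p = 0.00320, and 0.0218 without the doubtful libraries and 0.0181 with exchanged labels). TGIF2 (-1.39, adjusted p = 0.0172) and MEIS1 (-1.33, adjusted p = 0.0484) were also lower. TGIF2 was not called without the doubtful libraries (adjusted p = 0.144), and neither TGIF2 nor MEIS1 was with exchanged labels (adjusted p = 0.0597 and 0.120). The gene called higher was PBX4 (1.79, adjusted p = 0.0498, and 0.179 without the doubtful libraries and 0.117 with exchanged labels). In M4 against M3, 2 TALE genes were lower and 0 higher (background 10.3%).

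Of the Polycomb and trithorax regulators, 33 of 35 were in the table and tested, and edgeR called 0 of them between M4 and M1, between M3 and M1 or between M2 and M1. DESeq2 also called 0 in these 3 comparisons, while 11, 16 and 7 had an unadjusted p under 0.05. In M4 against M3, 3 of the 33 regulators were called, a share no larger than the 10.3% of all tested genes, and all were higher: KMT2D (1.23, adjusted p = 0.0307), KMT2C (1.27, adjusted p = 0.0151) and KDM6A (1.02, adjusted p = 0.00577), which belong to complexes that oppose Polycomb. Neither doubtful library belongs to M3 or M4, and the fold changes hardly moved when the pair was left out or exchanged (KMT2D 1.23 each, KMT2C 1.27 each), though KMT2D was then not called (adjusted p = 0.0581 and 0.110), nor KMT2C after the exchange (adjusted p = 0.0656). Polycomb genes were called higher too. In M4 against M2, 3 of the 33 were called higher, KMT2D, PHC3 and PHF1 (background 13.9%). In M3 against M2, 1 was called higher, RNF2 (background 4.15%). None of the calls against M2 was kept without the doubtful libraries or with exchanged labels. Among 18 genes of retinoic acid signaling and the CDX family, 10 were tested and CDX1 and CDX4 were at 0. In M4 against M1, 1 of the 10 was called higher and 1 lower, a share no larger than the 20.7% of all tested genes. ALDH1A3, which makes retinoic acid, rose in M4 against M1 (2.08, SE 0.231, adjusted p = 0.000844) and the retinoic acid carrier CRABP2 fell (-5.49, SE 0.776, adjusted p = 0.00265). Both were called without the doubtful libraries (adjusted p = 0.0118 and 0.0196) and with exchanged labels (adjusted p = 0.0290 and 0.0265). Of 27 genes that flank the clusters, 24 were in the table, 19 were tested and 2 were called in M4 against M1, against 20.7% of all tested genes: SKAP2 beside HOXA (1.07, adjusted p = 0.0251) and CALCOCO1 beside HOXC (-1.19, adjusted p = 0.0487), neither of them without the doubtful libraries (adjusted p = 0.167 and 0.225) or with exchanged labels (adjusted p = 0.0877 and 0.726). The median log2 fold change of the 19 flanking genes was 0.14, when that of the 8 tested HOXC genes was -1.11, of the 4 HOXB genes -0.84 and of the 10 HOXA genes -0.38.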

How the data were processed

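Poly A+ RNA of M1 to M4 cells grown as 3D acini was sequenced as paired-end reads in 2 biological replicates per line. The table deposited by the authors holds RSEM expected counts per GENCODE v19 gene, made from reads that were quality-trimmed (Trimmomatic) and mapped to hg19 (GRCh37) with STAR, and the submitters' notes also name Picard. Tool versions and the use of strand in counting are not given in the sources used here. Of the deposited values above 0, 32.3% were not whole, and all were rounded. A quasi-likelihood test (edgeR 4.0.16, R 4.3.3, limma 3.58.1) was fitted over all 8 libraries with TMM scaling and the filterByExpr filter, which kept 18431 genes, and calls needed a Benjamini-Hochberg adjusted p below 0.05 and an absolute log2 fold change of more than 1. The script was tested on simulated data. Levels per length used the union of exons. Exon lengths, gene positions and overlaps came from a later GENCODE release placed on GRCh37. They can therefore differ from the v19 genes that were counted. Python 3.11.15 with matplotlib 3.10.9, numpy 2.4.6, pandas 2.3.3 and scipy 1.17.1 served for summaries and plots. Alternatives covered DESeq2 1.42.0, RLE scaling, filters, call rules, a replicate block, the lines in the fit, library assignment and leaving out libraries.

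The HOX genes and the companion lists were chosen with earlier results of these data known. Every HOX gene is accounted for, and values in every library are given for genes called in a comparison or with at least 100 counts in both libraries of a line. From most companion lists up to 4 called genes of highest mean CPM are named. More are named from the Polycomb and trithorax list and from the epithelial markers. A further HOX gene and a further cofactor gene are not reported here.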

Additional observations from a re-analysis of the deposited data

Results flagged for a closer look

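HOXB2 and HOXB3 were marked because M3 and M4, both from carcinomas of the same xenograft series, changed against M1 in opposite directions. The rule also required a call in M4 against M3, and a call in M3 or M4 against M1. The values below restate that rule and are not separate support. HOXB2 had a log2 fold change of 0.59 in M3 and of -5.21 in M4 against M1, and the difference between M4 and M3, tested in the edgeR fit, was -5.80 (SE 0.611, adjusted p = 0.00239). HOXB3 had 0.73 in M3 and -1.77 in M4 against M1, and the difference was -2.50 (SE 0.355, adjusted p = 0.00608). The M3 changes against M1 did not pass the test on their own. Both M4 libraries of each gene lay under both M3 libraries.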

How the results depend on the processing

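The 6 counts of called HOX genes were recomputed under 18 other settings. The number of all genes called moves with the setting too, as in M2 against M1, where it went from 622 to 0 with exchanged labels. Shares of all genes are not given for the other settings. These counts alone therefore do not show a change particular to HOX genes. In M2 against M1 (2 genes) the count was 4 with no filter on low counts, 4 with DESeq2, 1 with only the 2 compared lines in the fit and 0 with the labels of the 2 doubtful libraries exchanged. In M3 against M1 (3 genes) these were 6, 6, 1 and 0, and 5 genes passed a rule of 2-fold in each replicate. In M3 against M2 (3 genes) the counts were 5 with no filter, 5 with DESeq2, 5 by the 2-fold rule and 0 with exchanged labels, and in M4 against M1 (8 genes) and M4 against M3 (5 genes) the exchange left 4 and 2. Leaving out both doubtful libraries, an alternative chosen after seeing the data, gave 0 in M2 against M1, 0 in M3 against M2 and 3 in M4 against M2 (6 genes). Leaving out single libraries gave 0 to 2 in M2 against M1, 0 to 4 in M3 against M1, 0 to 4 in M3 against M2, 6 to 8 in M4 against M1, 2 to 7 in M4 against M2 and 1 to 6 in M4 against M3. In M2 against M1 the count was 0 without M1 replicate 1, either M2 library or either M4 library and 1 without M1 replicate 2. In M3 against M1 it was 0 without M3 replicate 2 and 1 without M3 replicate 1, and in M3 against M2 it was 0 without either M2 library and 1 without M3 replicate 2. In M4 against M2 it was 2 without M2 replicate 1 and 3 without M2 replicate 2 or either M4 library, and in M4 against M3 it was 1 without M4 replicate 1 and 2 without M4 replicate 2, where a line with 1 library was assumed to vary like the others. The cause was not tested.

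Over the 27 called fold changes and their settings, 316 of 432 kept direction and call, 114 lost the call and 2 reversed: HOXA5 (0.078) and HOXB3 (0.40) in M2 against M1 with exchanged labels. HOXB2 in its 3 comparisons, HOXC5 in M4 against M1 and M4 against M2, and HOXC8 in M4 against M1 were called in every setting run.

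The replicate numbers did not pair the libraries (correlations of deviations between lines from -0.02 to 0.12). With the replicate block the counts were 1 in M2 against M1, 4 in M3 against M1, 2 in M3 against M2, 8 in M4 against M1, 6 in M4 against M2 and 4 in M4 against M3.

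Genes under 10 counts in every library, among them all of HOXD, were removed by the filter on low counts.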
